A study of Mus musculus with 115 samples.

Results

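The 10 genes described here belong to the Notch pathway and were the rows named Jag1, Jag2, Notch1, Notch2, Notch3, Hey1, Hey2, Heyl, Hes1 and Nrarp, out of 24484 gene rows in a table of unique molecular identifier (UMI) counts from single mouse ovary cells. A UMI is a random tag that marks 1 captured RNA molecule. All 10 rows were found, and each is followed across oocytes, granulosa cells, stroma and the remaining classes by genotype. The cells were picked by hand with needles after collagenase IV digestion of the ovary, and barcoded cells were pooled into labelled libraries. Wild type libraries, labelled with the strain C57BL/6-129Sv, comprised 31 of somatic cells and 12 of oocytes. The db/db libraries (db alters the leptin receptor gene Lepr) comprised 30 of somatic cells and 4 of oocytes, and the ob/ob libraries (ob alters the leptin gene Lep) 31 of somatic cells and 4 of oocytes. Both mutants carry the strain label C57BL/6, and both alleles make mice obese. All libraries are labelled ovary. No label used here gives an age, a diet or an animal, so the library served as the replicate. Each p-value sets a difference against the spread between these libraries, which may in part be technical. Genotype against wild type cannot be told apart from the strain label or from the order of the libraries, since all wild type libraries have lower numbers (1 to 59) than all mutant ones (from 82). The remaining 2 db/db libraries with both kinds of cell and 1 library with both mutant genotypes entered no comparison.

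Notch signalling works between cells that touch. A ligand of the Jagged or Delta family on the sending cell binds a Notch receptor on the receiving cell, proteases then cut the receptor, and its freed inner part goes to the nucleus, joins the DNA-binding protein RBPJ and switches on target genes, above all the HES and HEY repressors and Nrarp, a feedback inhibitor. In the ovary the pathway is known for the contact between the oocyte, which carries Jagged ligand, and the granulosa cells around it, which carry NOTCH2, from the breakdown of germ cell nests onward. In vessels NOTCH1 and DLL4 belong to the endothelium and NOTCH3 to the smooth muscle cells and pericytes around it.

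Of the 10 genes, 7 had an entry in the RefSeq promoter table (GRCm38.p6), which is another build than the mm9 build named for the counts, so these coordinates serve the sequences alone. Hes1, Hey1 and Heyl had none. The 250 bases before the start were searched on both strands for the core that RBPJ binds, TGGGAA, or TTCCCA on the other strand. The core stood in 7094 of 32851 entries, a share of 21.6%, and in 1 of the 7 genes, Hey2, at 207 bases before the start. The Hey2 sequence is shown because it held the core, which is in capitals, and those of Jag1 and Jag2, with no capitals, because both ligands stood higher in oocyte than in somatic libraries. A match is a description of letters, not of binding. The windows are chr10:30842784-30843033 (minus strand) for Hey2, chr2:137116521-137116770 (minus strand) for Jag1 and chr12:112929496-112929745 (minus strand) for Jag2, each 5′ to 3′.
Hey2: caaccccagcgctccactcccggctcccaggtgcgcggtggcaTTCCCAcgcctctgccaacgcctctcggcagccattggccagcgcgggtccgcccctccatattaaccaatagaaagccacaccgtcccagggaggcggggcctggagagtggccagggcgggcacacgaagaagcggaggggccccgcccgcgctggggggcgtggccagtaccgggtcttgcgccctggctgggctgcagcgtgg
Jag1: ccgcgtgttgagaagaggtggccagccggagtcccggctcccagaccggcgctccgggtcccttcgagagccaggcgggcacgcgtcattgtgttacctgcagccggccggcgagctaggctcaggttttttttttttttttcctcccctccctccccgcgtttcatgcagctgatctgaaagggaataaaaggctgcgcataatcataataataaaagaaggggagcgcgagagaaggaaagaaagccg
Jag2: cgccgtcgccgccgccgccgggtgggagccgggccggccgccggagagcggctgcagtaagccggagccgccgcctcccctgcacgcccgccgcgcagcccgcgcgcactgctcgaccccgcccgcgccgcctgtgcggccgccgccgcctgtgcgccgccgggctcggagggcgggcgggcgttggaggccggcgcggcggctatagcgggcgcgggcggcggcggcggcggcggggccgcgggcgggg

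After filtering, 8988 cells remained in the 6 labelled groups, and summed UMIs per library ran from 2017017 to 22488226. Cells were clustered without the 10 genes or any other Notch gene listed here, and 7430 cells lay in 8 classes, 7 of them named from markers and the last called cluster 12. Oocyte-like cells numbered 784 in wild type, 194 in db/db and 201 in ob/ob, granulosa-like cells 1219, 1487 and 1022, in the same order. Of 790 stroma-like cells 594 were wild type and 73 db/db. Cells of cluster 12 numbered 8, 92 and 286, and endothelial-like cells 14, 0 and 3, again from wild type to ob/ob. Further on, 3 values in a row follow this order too. The summed level of 12 oocyte markers had a median of 26952 CPM (UMIs of the genes per 1000000 UMIs of the library or class) in wild type oocyte-like libraries and of 112.6 CPM in granulosa-like cells of wild type, with no marker at 0. Cluster 12 was led by the vessel wall genes Rgs5, Myh11 and Mylk, with the endothelial genes Cldn5 and Cd93 and the stroma gene Nr2f2 among its 10 leading genes. Its summed smooth muscle and pericyte markers had medians of 813 CPM in db/db and 1409 CPM in ob/ob, below those of its stroma markers (1445 and 2103 CPM) and granulosa markers (10575 and 10488 CPM), so it is given no cell type name. The 96 cell barcode numbers recurred across libraries, each in at least 46 of them, and no 2 kept cells had identical counts.

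Several libraries stood apart. In 6 oocyte libraries (replicates 6 to 10 of wild type, replicate 2 of ob/ob) all oocyte-like cells fell in a single cluster (cluster 17), whereas the other 14 oocyte libraries lay mainly in clusters 15 and 16. Results on oocytes are therefore given with and without these 6 libraries. Of the somatic libraries, ob/ob replicate 5 had 98.9% of its 95 cells and db/db replicate 18 had 77.7% of its 94 cells in an unnamed cluster. In addition cells of oocyte clusters lay in 10 libraries labelled somatic cell, 36 of them among the 54 cells of db/db replicate 23. The labelled comparison of oocytes with somatic cells is given with and without these libraries and cells where they matter.

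The genes differed in the class of their highest level, as shown in the plot of pooled CPM by class. For both ligands it was the oocyte. Jag1 reached 355 CPM in oocyte-like cells, against 31.9 in cluster 12, 24.9 in endothelial-like, 19.8 in stroma-like, 18.05 in theca-like and 8.12 in granulosa-like cells. Luteal-like cells at 4.08 CPM and surface epithelium-like cells at 3.74 CPM came last. Apart from the oocyte and the endothelial-like cells, of which no library held 5, neighbours in this order lay within 1 SD of each other over libraries. Jag2 was likewise highest in the oocyte, with 16.5 CPM in oocyte-like cells and at most 3.76 CPM in any somatic class. Jag2 had no UMI in theca-like cells, where 3 UMIs would have given 0.132 CPM.

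The 3 receptors were divided among somatic classes. Notch1, the receptor of endothelium, had 229 CPM in endothelial-like cells and 19.1 CPM in stroma-like and 18.9 CPM in cluster 12. Every other class held under 5 CPM of it. Notch2, the granulosa receptor of the textbook account, was read in all classes, highest in luteal-like cells with 93.3 CPM and at 56.8, 56.7, 51.1, 46.8 and 35.6 CPM in theca-like, cluster 12, stroma-like, surface epithelium-like and granulosa-like cells. Oocyte-like cells had 8.85 CPM of Notch2 and endothelial-like cells 2.77. The library means of theca-like, stroma-like and surface epithelium-like cells and of cluster 12 lay within 1 SD of each other. Those of granulosa-like cells lay below cluster 12 by more than either SD in both mutants. In db/db they were 31.8 ± 20.4 (SD, n = 26) against 59.9 ± 19.4 (SD, n = 7) CPM. In ob/ob they were 29.55 ± 16.65 (SD, n = 24) against 62.7 ± 24.4 (SD, n = 13) CPM. Notch3, the receptor of the vessel wall, was highest in stroma-like cells with 9.87 CPM and cluster 12 with 8.03 CPM, a pair whose library values overlapped. Stroma-like libraries also carried smooth muscle and pericyte markers, with a summed median of 1102 CPM in wild type. Notch3 had 1 UMI in all 1179 oocyte-like cells.

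Among the targets, Hes1 was highest in the 17 endothelial-like cells at 2202 CPM, followed by surface epithelium-like cells at 823, stroma-like cells at 735 and granulosa-like cells at 543 CPM. It was low in luteal-like cells at 74.5 CPM and lowest in oocyte-like cells at 4.65 CPM. Heyl had its highest level in stroma-like cells at 96.1 CPM and its lowest in oocyte-like cells at 0.500 CPM. Hey2 was highest in cluster 12 at 25.3 CPM and granulosa-like cells at 20.3 CPM, and low in stroma-like cells at 2.02 CPM. Hey1 was near the same level in the oocyte and the stroma, with 10.3 CPM in oocyte-like and 11.3 CPM in stroma-like cells. Nrarp stayed under 2 CPM except in endothelial-like cells at 15.9 CPM and cluster 12 at 6.98 CPM.

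**Figure D1:**
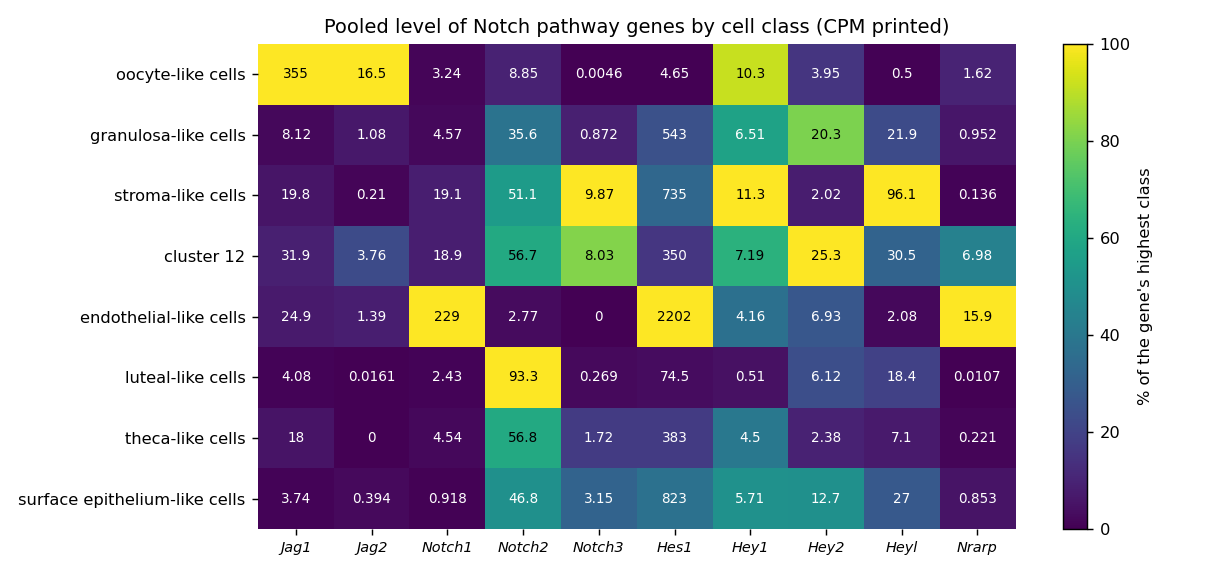
Pooled level of the 10 Notch pathway genes (columns) in 8 cell classes (rows), all genotypes together. The number in each cell is CPM over all cells of the class, and the colour gives it as a percentage of the gene's highest class. Jag1 and Jag2 peak in oocyte-like cells, Notch1, Hes1 and Nrarp in endothelial-like cells, and Notch2 in luteal-like cells.

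Libraries labelled oocyte held more Jag1 and Jag2 and less Notch2 than libraries labelled somatic cell in each genotype. In wild type, 6 of the 10 genes passed the test, with Jag1 and Jag2 higher and Notch2, Notch3, Heyl and Hes1 lower in oocyte libraries. The share of all genes called was larger, 70.9% of 16900 tested, with a median log2 difference of -0.20 over all genes and of -0.89 over the 10, or -0.11 and -1.56 without the single-cluster libraries. In data simulated for this comparison, calls on genes of low level were false more often than the threshold allows, so those below on genes near or under 1 CPM in one kind of library are weak. How many of all genes separate the 2 kinds of library without overlap was not counted, so such separations below are descriptions.

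Jag1, the main Jagged ligand of the oocyte, ran from 226 to 624 CPM with a median of 509 over 12 wild type oocyte libraries, and from 0.158 to 38.4 CPM with a median of 8.72 over 31 somatic libraries. The lowest oocyte library stood above the highest somatic library. The means were 432 ± 158 (SD, n = 12) and 11.2 ± 9.403 (SD, n = 31) CPM, a log2 difference of 5.83 (SE 0.50, edgeR adjusted p = 7.45e-20), and of 5.07 without the single-cluster libraries. In db/db, the 4 oocyte libraries had 167, 245, 359 and 298 CPM of Jag1. The somatic libraries of db/db had 0.791 to 207 CPM with a median of 9.93, and the highest was replicate 23, the library with 36 oocyte cluster cells. It alone overlapped the oocyte libraries, and the log2 difference was 4.09 (edgeR adjusted p = 7.88e-09), or 4.75 (edgeR adjusted p = 1.79e-13) without oocyte cluster cells in somatic libraries. In ob/ob, the oocyte libraries had 179.7, 826, 376 and 355 CPM, and the second of these values was 511 CPM when taken over the 25 of its 27 cells that lay in the oocyte-like class. All 31 ob/ob somatic libraries lay lower, at 0.306 to 162 CPM, and the highest of them was replicate 5, which stood apart. The log2 difference was 5.09 (edgeR adjusted p = 7.53e-13), and 5.63 (edgeR adjusted p = 4.5e-16) without the 2 somatic libraries that stood apart.

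Jag2, the second Jagged ligand, split the oocyte libraries. The 7 wild type libraries with cells in several clusters had 34.8, 15.6, 24.3, 27.8, 16.9, 16.6 and 23.6 CPM of Jag2 in oocyte-like cells, whereas the 5 single-cluster libraries had 0.564, 0.422, 0, 0.407 and 1.09 CPM. Likewise ob/ob replicate 2 had 0 CPM, against 17.3, 17.8 and 11.1 CPM in the other 3 ob/ob libraries, and the 4 db/db libraries had 15.1, 23.1, 16.8 and 27.3 CPM. No single-cluster library reached any of the others. Jag1 did not fall with Jag2 there, since the 5 wild type single-cluster libraries had 481, 550.4, 539, 509.8 and 509 CPM and the other 7 had 614, 507, 236, 226, 228, 284 and 329.8 CPM. The means were 518 ± 27.5 (SD, n = 5) and 346 ± 154.01 (SD, n = 7) CPM, and 5 of the 7 lay below every single-cluster library. Clusters were made from other genes of the same cells, so this split is a description with no test. In the labelled comparison Jag2 was higher in oocyte libraries in wild type, with 13.5 ± 12.6 (SD, n = 12) against 0.487 ± 1.601 (SD, n = 31) CPM (log2 difference 5.02, edgeR adjusted p = 4.39e-06). Of the 31 somatic libraries 19 had no Jag2 UMI, and the single-cluster oocyte libraries lay within the somatic range. The log2 difference was 3.71 in db/db (edgeR adjusted p = 0.00896) and 3.88 in ob/ob (edgeR adjusted p = 0.00515). By the DESeq2 Wald test neither mutant passed for Jag2 (adjusted p = 0.0691 and 0.0596). In granulosa-like and stroma-like cells Jag2 fell below the filter on low counts. Its test thus sets the oocyte level against low somatic counts, and its calls are weak.

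On the receiving side, Notch2 was lower in oocyte libraries of each genotype. In wild type it had 4.56 to 18.8 CPM with a median of 8.53 in oocyte libraries and 10.2 to 189 CPM with a median of 53.8 in somatic libraries. The ranges overlapped at their ends, with means of 9.65 ± 4.599 (SD, n = 12) and 53.9 ± 36.3 (SD, n = 31) CPM (log2 difference -2.10, SE 0.42, edgeR adjusted p = 5.09e-06). In db/db the log2 difference of Notch2 was -2.45 (edgeR adjusted p = 0.00254) and in ob/ob -2.32 (edgeR adjusted p = 0.00359). The highest somatic level in ob/ob, 559 CPM, was that of replicate 5, and without the 2 libraries that stood apart the ob/ob difference was -1.83 (edgeR adjusted p = 0.006). The share of all genes called was 48% in the db/db comparison and 50.4% in that of ob/ob, where 7 and 6 of the 10 genes passed.

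Notch3 had 0 UMIs in 150986848 UMIs of the 12 wild type oocyte libraries and 1187 in the somatic ones, so it was at least 179.7-fold lower in oocytes, with the floor at 3 UMIs over the group. In db/db it had 0 and 352 UMIs, at least 13.4-fold lower by the same floor. In ob/ob there was 1 UMI in the oocyte libraries and 558 in the somatic ones. Notch3 entered the fit through its somatic level alone, so its test sets that level against counts of 0 or 1 and adds nothing to these bounds. The edgeR adjusted p was 8.46e-07 in wild type, 0.0216 in db/db and 0.0332 in ob/ob, but it missed the threshold in db/db without replicate 2 or 3 and in ob/ob without replicate 2, 3 or 4 (adjusted p up to 0.063 in db/db and 0.0832 in ob/ob). Notch1 did not pass in any genotype. It had 2.98 ± 1.98 (SD, n = 12) CPM in wild type oocyte and 9.71 ± 13.03 (SD, n = 31) CPM in wild type somatic libraries (log2 difference -1.28, edgeR adjusted p = 0.111, and 0.0481 by the DESeq2 Wald test).

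**Figure D2:**
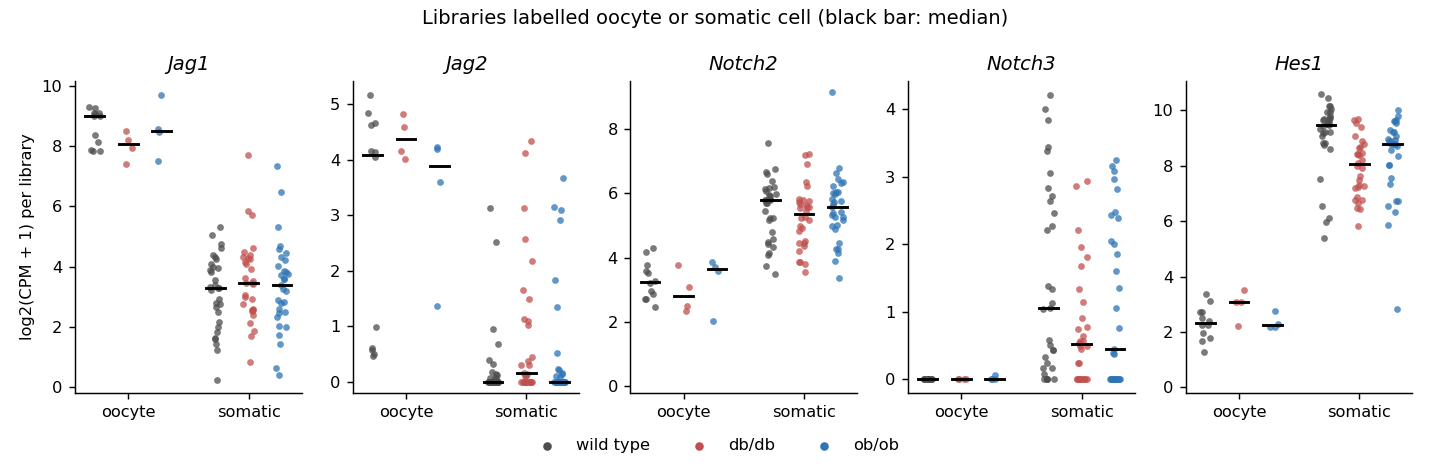
Level of 5 Notch pathway genes, as log2(CPM + 1), in each library labelled oocyte or somatic cell, coloured by genotype, with a black bar at the median. Jag1 and Jag2 stand high on the oocyte side and Notch2, Notch3 and Hes1 on the somatic side, and 6 oocyte libraries sit low for Jag2.

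Of the targets, Hes1 separated the 2 kinds of library in every genotype. Wild type oocyte libraries had 1.45 to 9.39 CPM (median 4.05), and wild type somatic libraries 41.2 to 1544 CPM (median 713). The groups did not overlap, a separation not counted over all genes, and the log2 difference was -6.60 (SE 0.54, edgeR adjusted p = 5.23e-21). In db/db it was -5.20 (edgeR adjusted p = 1.78e-07) and in ob/ob -6.25 (edgeR adjusted p = 3.71e-09), again without overlap. The margin in ob/ob was narrow, as the highest oocyte library had 5.79 and the lowest somatic library 6.03 CPM. Over the 25 oocyte-like cells of ob/ob oocyte replicate 2 alone, Hes1 was 7.21 CPM, above that somatic library. Heyl, a HEY family repressor, was also lower in oocyte libraries, with 0.354 ± 0.317 (SD, n = 12) against 28.1 ± 22.01 (SD, n = 31) CPM in wild type (log2 difference -5.86, edgeR adjusted p = 4.03e-15). In db/db the Heyl difference was -5.47 and in ob/ob -4.58 (edgeR adjusted p = 4.39e-06 and 2.92e-05). Like Notch3, Heyl entered this fit through its somatic level, as it fell below the filter on low counts in oocyte-like cells. The oocyte libraries held 61 Heyl UMIs in wild type, 18 in db/db and 32 in ob/ob, so its calls are weak.

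Hey1 and Nrarp did not pass in any genotype. Hey1 had 12.4 ± 4.45 (SD, n = 12) CPM in wild type oocyte and 9.77 ± 9.24 (SD, n = 31) CPM in wild type somatic libraries (edgeR adjusted p = 0.312). Nrarp had 1.84 ± 1.44 (SD, n = 12) and 0.923 ± 2.42 (SD, n = 31) CPM (edgeR adjusted p = 0.244), and 18 of 31 somatic libraries lacked it. Hey2 depended on the oocyte libraries used. With all 12 wild type oocyte libraries its log2 difference was -0.51 (edgeR adjusted p = 0.393), and without the 5 single-cluster ones, which had a mean of 7.30 ± 4.20 (SD, n = 5) CPM against 2.56 ± 0.821 (SD, n = 7) in the others, it was -2.05 (edgeR adjusted p = 0.0111). In db/db Hey2 was lower in oocyte libraries (log2 difference -2.45, edgeR adjusted p = 0.0354), but not when replicate 1, 2 or 4 was left out (adjusted p up to 0.0857).

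Of 60 further genes of the pathway in 7 lists, 37 passed in wild type, a smaller share than the 70.9% of all genes, and all values here are means of oocyte against somatic libraries. Of 7 other ligands and receptors 2 were higher and 2 lower in oocytes. Dll3, a Delta ligand that acts inside the cell, had 56.9 against 4.28 CPM (log2 difference 4.01). Dll4, the Delta ligand of endothelium, had 0.00467 against 1.35 CPM (log2 difference -6.21). Of the 10 receptor processing genes 5 were higher and none lower, among them the gamma-secretase subunit gene Psen2 with 104.1 against 25.1 CPM (log2 difference 2.42) and Adam17, the gene of a protease that cuts Notch receptors, with 89.1 against 41.04 CPM (log2 difference 1.49). Among 9 genes of the nuclear complex 4 were higher and 4 lower. Rbpj itself was higher, with 30.2 against 27.8 CPM (log2 difference 0.67), whereas Maml2, a coactivator gene, had 1.51 against 23.3 CPM (log2 difference -3.76). CPM were taken before the TMM normalization of the fit, and the 2 CPM means of Rbpj lay closer than its log2 difference. The part of that normalization in the call of Rbpj was not tested. Of 11 corepressor genes 3 were higher and 6 lower, with Ctbp2 at 201 against 23.3 CPM (log2 difference 3.81) and Tle3 at 0.157 against 17.02 CPM (log2 difference -6.15). In the list of ligand endocytosis and turnover 1 of 12 was higher and 4 were lower, and the Deltex genes Dtx2 and Dtx3 lay on opposite sides, with Dtx2 at 204 against 20.2 CPM (log2 difference 3.77) and Dtx3 at 0.454 against 39.7 CPM (log2 difference -6.04). Of 5 fringe and glycosylation genes 1 was higher and 3 were lower, with Mfng, which adds sugars to Notch receptors, at 18.5 against 1.91 CPM (log2 difference 3.45). Hes5 and Hes6 were the 2 of the other HES family targets that passed, both higher. Other genes called were Adam10, Crebbp, Dner, Ep300, Furin, Hdac2, Psenen, Snw1 and Tle4, all higher in oocytes, and Ctbp1, Dlk2, Dtx1, Dtx4, Hdac1, Kat2a, Kat2b, Lfng, Maml3, Mib2, Poglut1, Rfng, Spen and Tle2, all lower. In db/db 23 and in ob/ob 27 of the 60 genes passed, again smaller shares than the 48% and 50.4% of all genes.

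No member's oocyte-somatic difference was shown to depend on genotype. In 30 tests of the difference of differences none passed, and the lowest edgeR adjusted p was 0.395, for Hes1 in db/db against wild type (log2 difference of differences 1.41). Over all 16900 genes 0.639% passed for db/db against wild type, 0.361% for ob/ob against wild type and 0.071% for db/db against ob/ob. An unadjusted p under 0.05 was reached by 1 of the 30.

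Within oocyte-like cells no member passed between genotypes in the fit of all libraries. That fit tested 8 of the 10 genes, as Notch3 and Heyl fell below the filter on low counts, and called 1.12% of 13089 genes for db/db against wild type, 0.336% for ob/ob against wild type and 0.267% for db/db against ob/ob. Jag1 had 4 db/db libraries at 167, 245, 359 and 298 CPM, 4 ob/ob libraries at 179, 511, 376 and 355 CPM and 12 wild type libraries from 226 to 614 CPM (median 494). The 3 genotypes overlapped. The log2 difference from wild type was -1.06 in db/db (SE 0.49, edgeR adjusted p = 0.304) and -0.48 in ob/ob (SE 0.47, edgeR adjusted p = 0.84). Without the 6 single-cluster libraries the Jag1 differences were -0.24 and -0.03. The median log2 difference over the 8 genes was -0.80 in db/db, against -0.05 over all genes, and -0.23 in ob/ob, against -0.10. Without the 6 libraries the medians, then over 9 members, were -0.13 and -0.041, against -0.054 and -0.065 over all genes. In data simulated for db/db against wild type in this class, most changed genes were missed, so members that did not pass may still differ.

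Without the 6 single-cluster libraries 1 of 9 tested members passed in each mutant against wild type, Hey1 in ob/ob and Nrarp in db/db. This choice was made after the data were seen, and with it 11.5% of 13482 genes were called for db/db against wild type, 4.81% for ob/ob against wild type and 1.65% for db/db against ob/ob. For db/db, 1 of 9 is near the share of all genes. How many of all genes separate without overlap was not counted. Hey1, a HEY family repressor, had 13.02, 10.3, 19.7, 18.9, 11.3, 14.4 and 10.2 CPM in the 7 remaining wild type libraries, 3.96, 6.01 and 4.14 CPM in the 3 ob/ob libraries and 6.18, 8.11, 6.25 and 11.97 CPM in the 4 db/db libraries. All ob/ob libraries lay below all wild type ones, and 3 of 4 db/db libraries did. Hey1 was lower in ob/ob, at 4.70 ± 1.14 (SD, n = 3) against 13.96 ± 3.92 (SD, n = 7) CPM (log2 difference -1.42, edgeR adjusted p = 0.00813). In db/db the difference was -0.66 (edgeR adjusted p = 0.1). Over all libraries the Hey1 differences were -1.28 in ob/ob (edgeR adjusted p = 0.189, and 0.0169 by the DESeq2 Wald test) and -0.85 in db/db (edgeR adjusted p = 0.26).

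Nrarp had 3.54, 1.30, 3.67, 3.46, 2.08, 3.51 and 1.85 CPM in the same 7 wild type libraries and 0.687, 0.507, 0 and 1.12 CPM in the 4 db/db libraries. These groups did not overlap, a separation not counted over all genes, and Nrarp was lower in db/db (log2 difference -2.21, edgeR adjusted p = 0.0232). The 3 ob/ob libraries had 1.04, 1.54 and 0.331 CPM, and ob/ob did not pass (log2 difference -1.33, edgeR adjusted p = 0.21). In the fit of all libraries the db/db difference was -1.73 (edgeR adjusted p = 0.373). Nrarp rests on few molecules, with 19 UMIs in all 4 db/db libraries together. Neither gene passed between db/db and ob/ob, at 0.76 for Hey1 and -0.88 for Nrarp (edgeR adjusted p = 0.38 and 0.735).

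Of the oocyte clusters, cluster 16, the largest, gave the same 2 genes and cluster 15 gave none. Cells of cluster 16 were part of those in the fit without the single-cluster libraries, so its calls are no separate support. Cluster 16 held 43.5% of wild type, 60.8% of db/db and 61.7% of ob/ob oocyte-like cells, and within it 12% of 11252 genes were called for db/db and 4.67% for ob/ob against wild type. Hey1 had 8.95 ± 2.52 (SD, n = 7) CPM in wild type, 2.59 ± 1.70 (SD, n = 4) CPM in db/db and 2.54 ± 1.22 (SD, n = 3) CPM in ob/ob. It passed in both mutants, with log2 differences of -1.50 and -1.75 (edgeR adjusted p = 0.0286 and 0.0314). Nrarp had 2.95 ± 1.32 (SD, n = 7) CPM in wild type and 0.484 ± 0.615 (SD, n = 4) CPM in db/db (log2 difference -2.82, edgeR adjusted p = 0.0445). The ligand Jag1 stood at 434 ± 148.2 (SD, n = 7), 433 ± 157 (SD, n = 4) and 348 ± 96.6 (SD, n = 3) CPM. Its levels overlapped, with a log2 difference of 0.02 for db/db. In cluster 15, tested for db/db against wild type alone, none of 8 members passed, with 4.45% of 12415 genes called. The log2 difference there was -0.58 for Hey1 (edgeR adjusted p = 0.456) and -1.72 for Nrarp (edgeR adjusted p = 0.125). Cluster 15 held 12.1%, 29.9% and 20.9% and cluster 17 43.5%, 8.25% and 17.4% of the oocyte-like cells, and pooled Jag1 was 234 CPM in cluster 15, 443 in cluster 16 and 500.3 in cluster 17. The part of these shares in the differences was not tested.

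In granulosa-like cells 1 member was called between genotypes, Hes1, a repressor among the HES and HEY targets of Notch. Its level in db/db was under that of wild type, and ob/ob lay between them. Wild type libraries had 406 to 1761 CPM with a median of 825, db/db libraries 61.5 to 1021 CPM with a median of 319, and ob/ob libraries 103.4 to 1121 CPM with a median of 476. Of 26 db/db libraries 18 lay below every wild type library and 25 below the wild type median. For the 24 ob/ob libraries these counts were 7 and 22. The means were 850.2 ± 300.4 (SD, n = 26), 360.2 ± 249.8 (SD, n = 26) and 513 ± 251 (SD, n = 24) CPM. Hes1 fell in db/db by 1.28 on the log2 scale (SE 0.23, edgeR adjusted p = 3.45e-05), in a comparison that called 7.3% of 10844 genes. In ob/ob the log2 difference of -0.73 (SE 0.23) did not pass (edgeR adjusted p = 0.0521, with 3.93% of genes called), but did without the filter on low counts (adjusted p = 0.0161). Between db/db and ob/ob the difference was -0.55 (edgeR adjusted p = 0.44, with 0.885% of genes called), so the 2 mutants were not shown to differ. Without the 2 libraries that stood apart the db/db difference was -1.24 (edgeR adjusted p = 5.97e-05).

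**Figure D3:**
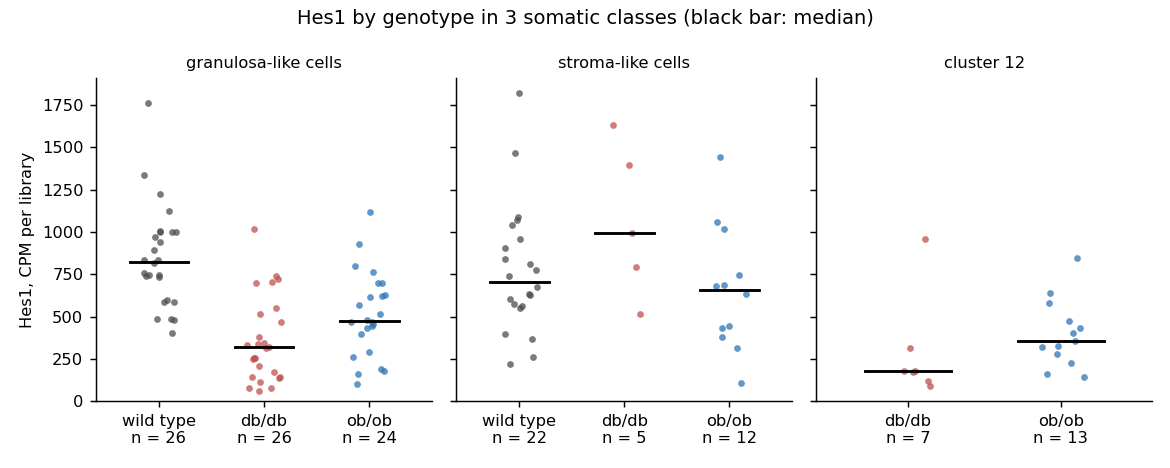
Hes1 CPM in each library with at least 5 cells of the class, by genotype, in granulosa-like, stroma-like and cluster 12, with a black bar at the median. In granulosa-like cells 18 of 26 db/db libraries lie below all wild type libraries, whereas in stroma-like cells the genotypes overlap.

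The log2 difference of Hes1 between db/db and wild type ran from -1.86 to 0.24 over the 5 granulosa-like clusters with a test. Whether it differed between clusters was not tested, and the genotypes filled the granulosa-like clusters unequally. Cluster 9, where Hes1 was high, held 36.2% of wild type, 4.77% of db/db and 15.5% of ob/ob granulosa-like cells. Cluster 2, where it was low, held 4.59%, 22.7% and 17.2%, and cluster 8 held 1.72%, 11.5% and 10.9%. Within cluster 3, Hes1 was lower in db/db, with 566 ± 353 (SD, n = 13) against 1318 ± 593 (SD, n = 15) CPM in wild type (log2 difference -1.36, edgeR adjusted p = 0.0287, with 0.523% of genes called). Cluster 3 had 9 of 14 granulosa markers in at least 25% of its cells and a median of 1932.5 genes per cell. Both were the lowest of the granulosa-like clusters. In cluster 2 the means were 183 ± 134.5 (SD, n = 16) and 637 ± 138.7 (SD, n = 3) CPM (log2 difference -1.86, edgeR adjusted p = 0.0637, with 0.56% called). In cluster 5, the largest, the log2 difference was -0.73 (edgeR adjusted p = 0.253, with 0.774% called), and in cluster 0 it was also -0.73 (edgeR adjusted p = 0.396, with 0.179% called). In cluster 9 the means were 996 ± 610.0 (SD, n = 5) in db/db and 996 ± 470.3 (SD, n = 20) CPM in wild type, with a log2 difference of 0.24 (edgeR adjusted p = 0.745, with 0.288% called). Hes1 was thus called in 1 of the 5 clusters with a test, and the difference was negative in 4. The part of the cluster shares in the fall was not tested.

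**Figure D4:**
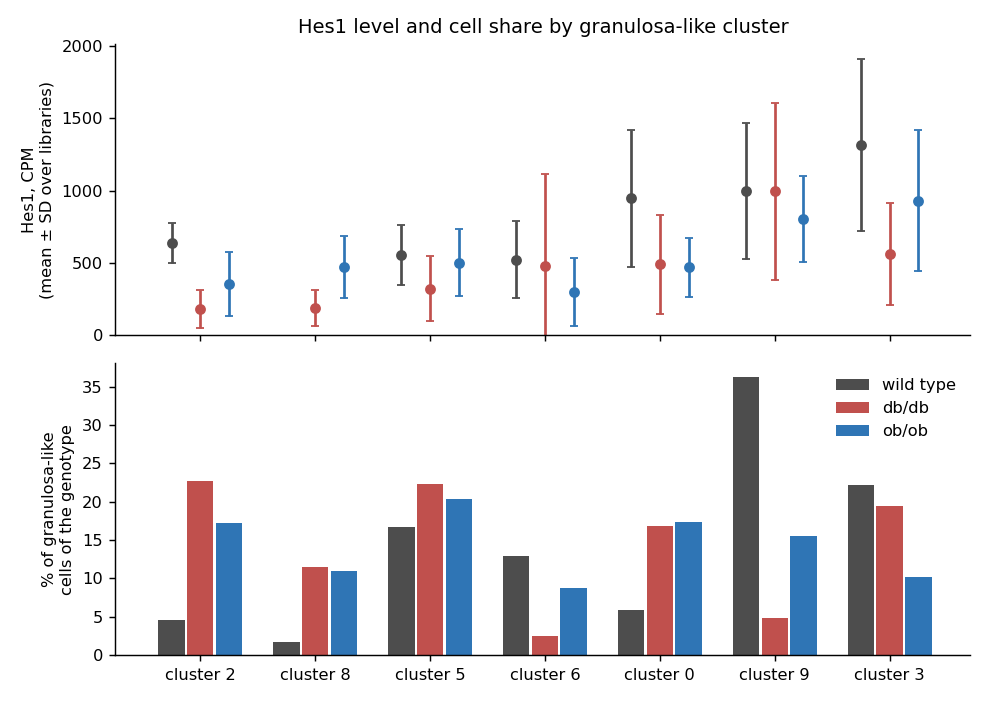
Upper panel, Hes1 CPM as mean and SD over libraries in each granulosa-like cluster and genotype, where the lower bar of db/db in cluster 6 (2 libraries) is not drawn below 0. Lower panel, the percentage of the granulosa-like cells of a genotype that lie in the cluster. The db/db mean is the lowest in clusters 2, 8, 5 and 3, wild type cells are most frequent in cluster 9 and db/db cells in cluster 2.

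Other measures moved or stayed beside Hes1 as follows. A Hes1 UMI was seen in 96.7% of wild type, 86.7% of db/db and 95.3% of ob/ob granulosa-like cells. At an equal 3000 UMIs per cell, which left out no cell, these shares were 70.3%, 41.9% and 58.1%, against 3.20%, 4.39% and 1.94% in oocyte-like cells. Median UMIs per granulosa-like cell were 83562 in wild type, 74295 in db/db and 79355 in ob/ob. The summed level of 18 early response and stress genes, a kind to which Hes1 also belongs, had medians of 8662, 9438 and 8943 CPM, and its part in the fall was not tested. The summed oocyte markers in granulosa-like cells had medians of 112.6, 172.5 and 79.2 CPM. Unnamed clusters led by granulosa markers, which are not part of the class, held 4.8% of wild type, 18.4% of db/db and 18.2% of ob/ob somatic cells.

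The other members did not pass in granulosa-like cells, and Jag2, Notch3 and Nrarp were below the filter. In data simulated for db/db against wild type in this class, most genes changed by a log2 of 1 were missed. Members that did not pass may therefore still differ. Notch2, the receptor that faces the oocyte, had 1.96 to 99.9 CPM (median 34.7) in wild type, 4.41 to 101.3 CPM (median 29.8) in db/db and 5.78 to 60.01 CPM (median 27.1) in ob/ob. The ranges overlapped almost wholly, with log2 differences from wild type of -0.42 (SE 0.28) and -0.44 (SE 0.28; edgeR adjusted p = 0.429 and 0.433). Hey1 had means of 9.85 ± 9.86 (SD, n = 26), 7.28 ± 9.62 (SD, n = 26) and 5.01 ± 6.40 (SD, n = 24) CPM, with log2 differences in db/db and ob/ob of -0.62 and -1.01 (edgeR adjusted p = 0.622 and 0.394). For Heyl and Hey2 the differences were 0.49 and 0.28 in db/db and 0.40 and -0.21 in ob/ob, none past the test. Hes1 was thus the single HES or HEY target called. Jag1 had medians of 4.41, 9.11 and 2.48 CPM, and Notch1 of 0.540, 1.33 and 1.98 CPM. Over the 7 tested members the median log2 difference was -0.42 in db/db and -0.44 in ob/ob, against 0.03 over all genes in both. None of the 60 further pathway genes was called in any of the 10 genotype comparisons within classes, and the nearest, named after its value was seen, was Numb, the gene of an inhibitor of Notch, in granulosa-like cells of ob/ob (log2 difference from wild type -1.07, edgeR adjusted p = 0.051).

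**Figure D5:**
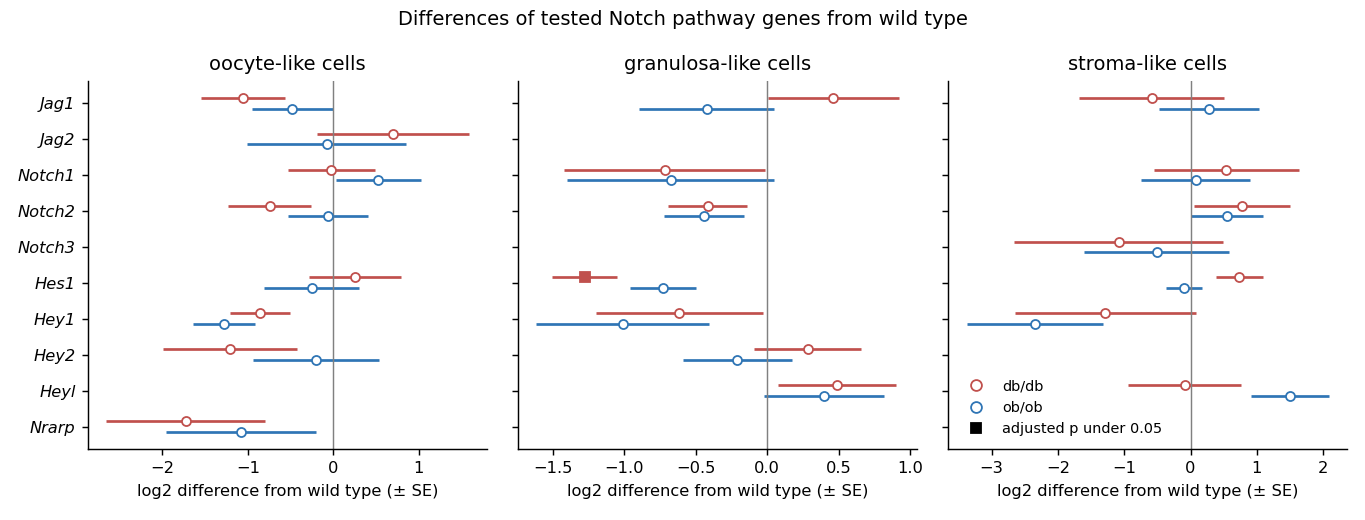
Log2 difference from wild type with its SE for each tested Notch pathway gene in oocyte-like, granulosa-like and stroma-like cells, db/db in red and ob/ob in blue, with a filled square where the edgeR adjusted p is under 0.05. Hes1 in db/db granulosa-like cells is the single filled point.

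Stroma-like cells, named from markers of the connective tissue between follicles, showed no called member. Most changed genes were missed in data simulated for db/db against wild type here, so a member may differ without a call. The class was compared over 22 libraries of wild type, 5 of db/db and 12 of ob/ob. In it 7 of the 10 genes were tested, and 0.559% of 10021 genes were called for db/db against wild type, 1.03% for ob/ob against wild type and 0.549% for db/db against ob/ob. Hes1 in the 5 db/db libraries was 995, 1635, 1395, 792 and 517 CPM, against 223 to 1819 CPM (median 708) in wild type and 110.1 to 1440 CPM (median 659) in ob/ob. All db/db values lay within the wild type range. The log2 differences from wild type were 0.73 (SE 0.35, edgeR adjusted p = 0.293) and -0.10 (SE 0.27, edgeR adjusted p = 0.902). Whether the genotype difference of Hes1 differed between stroma-like and granulosa-like cells was not tested.

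Heyl spread widely in stroma-like cells of ob/ob, from 0 to 591 CPM with a median of 58.5, against 3.68 to 242 CPM with a median of 51.1 in wild type. In ob/ob 4 libraries stood above all wild type ones and 2 had none, and the log2 difference was 1.503 (edgeR adjusted p = 0.188). Hey1 had no UMI in 8 of 12 ob/ob and 3 of 22 wild type libraries (log2 difference -2.35, edgeR adjusted p = 0.246). The receptors did not separate the genotypes either, with log2 differences in db/db and ob/ob of 0.54 and 0.08 for Notch1, 0.77 and 0.55 for Notch2 and -1.08 and -0.51 for Notch3. Without db/db replicate 2, which had 184 CPM of Notch2, the db/db difference of Notch2 was -0.62, and without replicate 9, which had 105.8 CPM of Notch1, that of Notch1 was -0.80. The summed smooth muscle and pericyte markers in this class ran from 124.9 to 10364 CPM over the db/db libraries and from 704 to 4748 CPM over the wild type ones. From wild type to ob/ob their medians were 1102, 4396 and 1153 CPM, against 7163, 4145 and 5361 CPM for the summed stroma markers. In db/db the smooth muscle and pericyte median thus lay above the stroma median, so the class name is least secure there. The part of these markers in the values above was not tested.

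Cluster 12 could be compared between the mutants alone, as 7 db/db and 13 ob/ob libraries but no wild type library had 5 of its cells. Of 9 genes tested none passed, with 0.463% of 9720 genes called. In simulated data for this comparison, too, most changed genes were missed. Notch3, the receptor known for the vessel wall, had 0, 0.586, 1.01, 0.764, 0, 54.5 and 1.16 CPM in the 7 db/db libraries and 1.31 to 60.1 CPM (median 5.59) in ob/ob. In db/db 1 library, replicate 27, stood far above the other 6. The log2 difference was -0.36 (SE 1.003, edgeR adjusted p = 0.921), while the DESeq2 Wald test gave -3.60 (adjusted p = 0.0201). Notch2 stood at 59.9 ± 19.4 (SD, n = 7) CPM in db/db and 62.7 ± 24.4 (SD, n = 13) CPM in ob/ob (log2 difference 0.10, SE 0.41, edgeR adjusted p = 0.949). Hes1 had medians of 177 and 357 CPM in db/db and ob/ob, with overlapping ranges (log2 difference -0.17, edgeR adjusted p = 0.894). For Jag1, Hey2 and Heyl the differences were -0.47, 0.46 and 0.02.

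The 14 endothelial-like cells of wild type allow pooled levels with no test, and their exact Poisson 95% intervals cover counting error only. Notch1 had 285 CPM (255 to 318) from 330 UMIs, all of them in 6 of the 14 cells, and Hes1 2399 CPM (2311 to 2490), with UMIs in all 14. Nrarp stood at 19.9 CPM (12.6 to 29.8) and Jag1 at 31.1 CPM (21.8 to 43.1), from 2 and 3 cells, so these levels are those of a few cells. Notch3 and Heyl had no UMI, which allows up to 3.19 CPM. Dll4, the ligand of this cell type, reached 177 CPM over all 17 endothelial-like cells, and Mfng, a fringe enzyme gene, 133.7 CPM, each the highest of the 8 classes. The 3 ob/ob cells had 1406 CPM of Hes1 and no Notch1 UMI, which at their depth allows up to 12.9 CPM, and no db/db cell was found.

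Luteal-like cells, the steroid producing cells that follow ovulation, had the highest pooled Notch2 of the 8 classes and, after oocyte-like cells, the lowest Hes1. Notch2 had 82.7 ± 33.2 CPM in 4 wild type, 105.3 ± 34.9 in 4 db/db and 86.99 ± 14.4 in 6 ob/ob libraries (mean ± SD), and Hes1 56.98 ± 10.1, 97.05 ± 27.7 and 69.8 ± 35.6 CPM. The genotypes overlapped for both genes, and differences between them were not tested. Set beside granulosa-like cells, the luteal-like mean of Notch2 over 14 libraries was 91.001 CPM against 33.6 over 76, and that of Hes1 73.9 against 576 CPM, given here as levels.

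Genes whose level followed that of a member most closely were sought over 17 class and genotype combinations with at least 20 cells each, by Pearson correlation of log2(CPM + 1) among 10289 genes. The combinations of a class share cell type and libraries, so the values are a description. Closest to Jag1 were Aspm (0.968), Astl (0.963), Sp110 (0.96) and Gm1965 (0.959). Closest to Notch2 were Slc39a1 (0.979), Aes (0.97), Psap (0.963) and Glul (0.962), to Notch3, whose highest combination reached only 11.5 CPM, Thy1 (0.961), Nid1 (0.945), Thbd (0.935) and Col26a1 (0.933), and to Hes1 the early response and stress genes Ppp1r15a (0.981) and Jun (0.979), with Tra2b (0.979) and Hspa5 (0.978).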

How the data were processed

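Single ovary cells were sequenced with UMIs, and the submitters' processing notes name the build mm9. No aligner or annotation is named, that is, both are not given in the sources used. The authors deposited a table of UMI counts per gene and cell, not normalized, with 24484 gene rows, 92 ERCC and 3 RGC spike-in rows, and 13254 cell columns. Spike-ins, 22.4% of UMIs of kept cells, were left out, as were 3254 columns of 38 libraries that no label covers. The 10 genes, the other Notch lists and the markers were chosen with earlier results of these data known.

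A cell was kept with 1000 genes and 3000 UMIs or more (9268 cells). They were clustered without 69 Notch genes using scanpy 1.11.5 (2000 variable genes, 30 principal components, 20 neighbours, Leiden at resolution 1.5), which gave 25 clusters, all classes but cluster 12 being named from marker lists. Cells had been picked by hand and no doublet caller was run. Of other cell type lists, values are given where they bear on a result. Counts were summed per library with at least 5 cells of a class and tested with edgeR 4.0.16 (quasi-likelihood, TMM, filterByExpr) in R 4.3.3, with Benjamini-Hochberg adjustment over all genes tested and a threshold of 0.05. CPM were computed from summed UMIs before TMM. DESeq2 1.42.0, other filters, single clusters and left-out libraries served as alternatives, and those on single-cluster oocyte libraries, each granulosa-like cluster, oocyte cluster 15, the 2 libraries that stood apart and oocyte cluster cells in somatic libraries were chosen after seeing the data.

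All 10 genes were named in each class. Of the other lists, genes that passed were named, except 1 that is not reported here, and for pattern likeness the 4 genes of highest correlation among those with at least 20 CPM in 1 combination. The tests were checked on simulated data. For oocyte against somatic libraries, calls there were false more often than the threshold allows, mainly for genes under 1 CPM, so calls on low genes in that comparison are weak. Intervals cover counting error only.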

Additional observations from a re-analysis of the deposited data

Results flagged for a closer look

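In groups of 4 to 10 libraries, 15 of 58 sets of values held a library set apart from the rest by Dixon's ratio at the 95% level. All these libraries were the highest of their group. Some sets had UMIs in a single library, which the ratio flags by construction. Notch3 in ob/ob oocytes was such a set and was counted both over oocyte-like cells and over all cells. The count of sets is therefore not compared with a chance rate.

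In ob/ob oocytes, replicate 1 held the single Notch3 UMI, 0.0470 CPM over its 94 oocyte-like cells and 0.0470 CPM over all 95 cells, against 0 in the other 3. Replicate 2, the single-cluster ob/ob library, had the highest Hey2, 10.97 CPM in 25 oocyte-like cells against 3.64 in the next library and 11.8 CPM over all 27 cells. Its Hes1 was 7.21 CPM, against 3.92 in the next library.

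In stroma-like cells of db/db the libraries set apart held 7 to 11 cells. Replicate 4 had 56.4 CPM of Jag1 (next 12.9) and 27.3 CPM of Notch3, which had no UMI in the other 4. Replicate 2 had 1.07 CPM of Jag2 and replicate 27 had 2.42 CPM of Nrarp, both with no UMI in the other 4. Replicate 9 had 105.8 CPM of Notch1 (next 29.1).

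In cluster 12 of db/db, replicate 27, with 6 cells, stood apart for Notch3 at 54.5 CPM (next 1.16) and for Hes1 at 961 CPM (next 317). Jag1 was 85.6 CPM in replicate 5 (next 21.4), Jag2 32.5 CPM in replicate 30 (next 11.1) and Hey1 37.5 CPM in replicate 16 (next 2.35).

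Among cells that no comparison within classes used, the unnamed cluster 10, with most of its cells from ob/ob somatic replicate 5, had a pooled Notch2 level of 507 CPM, above the highest wild type value, over the classes with a test and the labelled libraries, of 276 CPM.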

How the results depend on the processing

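Of 20 called results on single members, 179 of 196 values under alternatives stayed past the threshold in the same direction, 16 missed it and 1 had the opposite sign (Hes1 for db/db in granulosa-like cluster 9). Of 729 values of members that were not called, 10 passed and 47 had the opposite sign. The cause was not tested for the changes below unless fewer genes or libraries enter by construction. No paired analysis was possible because the labels give no replicate numbers or animals and replicates were numbered in order. The alternatives listed for endothelial-like cells were not run, since no library held 5 of these cells. In oocyte-like cells Notch3 and Heyl were below the filter on low counts, so differences between genotypes were not detectable there at this depth.

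With the DESeq2 Wald test, the share of genes called was 1.5% for db/db against ob/ob in granulosa-like cells (from 0.885%), 0.772% for db/db against ob/ob in oocyte-like cells (from 0.267%), 2.09% for db/db against ob/ob in cluster 12 (from 0.463%), 4.81% for db/db against ob/ob in stroma-like cells (from 0.549%), 4.38% for db/db against wild type in oocyte-like cells (from 1.12%), 4.59% for db/db against wild type in stroma-like cells (from 0.559%), 6.69% for ob/ob against wild type in granulosa-like cells (from 3.93%), 1.65% for ob/ob against wild type in oocyte-like cells (from 0.336%) and 3.48% for ob/ob against wild type in stroma-like cells (from 1.03%). With DESeq2 size factors, the share of genes called was 0.898% for db/db against ob/ob in stroma-like cells (from 0.549%), 2.42% for db/db against wild type in stroma-like cells (from 0.559%) and 1.73% for ob/ob against wild type in stroma-like cells (from 1.03%). With at least 2000 genes and 10000 UMIs per cell, the share of genes called was 0.221% for db/db against ob/ob in stroma-like cells (from 0.549%) and 0.231% for db/db against wild type in stroma-like cells (from 0.559%). In the largest cluster of the class alone, the share of genes called was 0.505% for db/db against ob/ob in granulosa-like cells (from 0.885%), 1.48% for db/db against ob/ob in oocyte-like cells (from 0.267%), 0.774% for db/db against wild type in granulosa-like cells (from 7.3%), 12% for db/db against wild type in oocyte-like cells (from 1.12%), 0.516% for ob/ob against wild type in granulosa-like cells (from 3.93%) and 4.67% for ob/ob against wild type in oocyte-like cells (from 0.336%). In cluster 15 alone, it was 4.45% for db/db against wild type in oocyte-like cells (from 1.12%). With the library number as a covariate, the share of genes called was 0.085% for db/db against ob/ob in stroma-like cells (from 0.549%). Without the low count filter, the share of genes called was 10.2% for db/db against ob/ob in granulosa-like cells (from 0.885%), 1.79% for db/db against ob/ob in cluster 12 (from 0.463%), 0.739% for db/db against ob/ob in stroma-like cells (from 0.549%), 17.2% for db/db against wild type in granulosa-like cells (from 7.3%), 1.61% for db/db against wild type in stroma-like cells (from 0.559%), 14.7% for ob/ob against wild type in granulosa-like cells (from 3.93%) and 3.72% for ob/ob against wild type in stroma-like cells (from 1.03%). Without the 6 single-cluster oocyte libraries, the share of genes called was 1.65% for db/db against ob/ob in oocyte-like cells (from 0.267%), 11.5% for db/db against wild type in oocyte-like cells (from 1.12%) and 4.81% for ob/ob against wild type in oocyte-like cells (from 0.336%).

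Members called went from 0 to 1 with the DESeq2 Wald test for db/db against ob/ob in cluster 12 and for ob/ob against wild type in oocyte-like cells, from 0 to 1 without the low count filter for db/db in stroma-like cells and ob/ob in granulosa-like cells, both against wild type, and from 0 to 1 in both mutants against wild type without the 6 single-cluster oocyte libraries. In the largest cluster alone they went from 0 to 2 for db/db and to 1 for ob/ob in oocyte-like cells and from 1 to 0 for db/db in granulosa-like cells, as they did in clusters 0, 2, 5 and 9 alone. With each library of a small group left out in turn, 0.246% to 0.618% of genes were called for db/db against ob/ob in stroma-like cells (from 0.549%). With each library of a small group left out in turn, 0.504% to 0.592% of genes were called for db/db against wild type in oocyte-like cells (from 1.12%). With each library of a small group left out in turn, 0.208% to 0.656% of genes were called for db/db against wild type in stroma-like cells (from 0.559%). With each library of a small group left out in turn, 0.128% to 0.267% of genes were called for ob/ob against wild type in oocyte-like cells (from 0.336%). The pooled Notch3 level of 3.15 CPM in surface epithelium-like cells was 0.417 CPM as a mean over libraries.

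With the DESeq2 Wald test the log2 difference changed sign, to Notch1 0.063 for db/db against wild type in oocyte-like cells, Heyl 0.072 for db/db against wild type in stroma-like cells, Hey2 0.034 and Notch2 0.094 for ob/ob against wild type in oocyte-like cells and Hes1 0.055 for ob/ob against wild type in stroma-like cells. With DESeq2 size factors the log2 difference changed sign, to Notch1 0.068 for db/db against wild type in oocyte-like cells, Heyl 0.083 for db/db against wild type in stroma-like cells, Hey2 0.033 and Notch2 0.11 for ob/ob against wild type in oocyte-like cells and Hes1 0.055 for ob/ob against wild type in stroma-like cells. With at least 2000 genes and 10000 UMIs per cell the log2 difference changed sign, to Heyl 0.21 for db/db against wild type in stroma-like cells, Hes1 0.022 for ob/ob against wild type in stroma-like cells and Notch1 0.034 for oocyte against somatic in ob/ob. In the largest cluster of the class alone the log2 difference changed sign, to Hey2 0.52, Jag1 0.26 and Notch1 0.65 for db/db against ob/ob in oocyte-like cells, Notch2 0.12 for db/db against wild type in granulosa-like cells, Hey2 1.29 and Jag1 0.022 for db/db against wild type in oocyte-like cells, Heyl -0.27 for ob/ob against wild type in granulosa-like cells and Hey2 0.77 and Notch1 -0.79 for ob/ob against wild type in oocyte-like cells. With the library number as a covariate the log2 difference changed sign, to Heyl 0.53 for db/db against ob/ob in stroma-like cells. Without the low count filter the log2 difference changed sign, to Notch1 -0.046 for ob/ob against wild type in stroma-like cells. In cluster 0 alone the log2 difference changed sign, to Hes1 0.064 for db/db against ob/ob in granulosa-like cells. In cluster 9 alone the log2 difference changed sign, to Hes1 0.44 for db/db against ob/ob in granulosa-like cells and Hes1 0.24 for db/db against wild type in granulosa-like cells. In cluster 15 alone it changed sign, to Jag2 -0.081 and Notch1 0.048 for db/db against wild type in oocyte-like cells. Beside the values counted above, the other members had 72 values in single granulosa-like clusters, of which 25 had the opposite sign to the whole class (-2.44 to 3.08) and none was called. Without the 6 single-cluster oocyte libraries the log2 difference changed sign, to Notch1 0.13 for db/db against ob/ob in oocyte-like cells, Hey2 0.31 and Jag2 -0.015 for db/db against wild type in oocyte-like cells and Hey2 0.44 and Notch1 -0.26 for ob/ob against wild type in oocyte-like cells. Leaving out single libraries gave db/db against ob/ob in oocyte-like cells a range of -0.85 to 0.085 for Notch1. Leaving out single libraries gave db/db against ob/ob in stroma-like cells a range of -0.83 to 0.78 for Notch1 and -1.16 to 0.53 for Notch2. Leaving out single libraries gave db/db against wild type in oocyte-like cells a range of -0.31 to 0.23 for Notch1. Leaving out single libraries gave db/db against wild type in stroma-like cells a range of -0.69 to 0.21 for Heyl, -0.80 to 0.84 for Notch1 and -0.62 to 1.003 for Notch2. Leaving out single libraries gave ob/ob against wild type in oocyte-like cells a range of -1.06 to 0.041 for Hey2, -0.36 to 0.32 for Jag2, -0.12 to 0.83 for Notch1 and -0.34 to 0.26 for Notch2.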
